A study of Drosophila melanogaster with 3 samples.

Results

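Proneural and neural bHLH activators are the basic helix-loop-helix transcription factors that start and carry forward the neural programme of Drosophila melanogaster. Their genes numbered 10 of the 13945 protein-coding genes examined, and the list was ac, sc, l(1)sc, ase, ato, amos, cato, da, tap and dimm. The rule that lists them names the genes by function and uses no binding value, although earlier results of these data were known when it was written. The data were binding maps of HLHm7, which E(spl)m7-HLH encodes, from chromatin immunoprecipitation followed by sequencing (ChIP-seq) in embryos of 0 to 16 h. The 3 libraries form a single group, labelled as biological replicates 1, 2 and 3, and all came from one transgenic line that stably makes HLHm7 with a green fluorescent protein (GFP) at its C-terminus. Chromatin of whole embryos, males and females together, was precipitated with an antibody against GFP. No other genotype, stage or treatment was measured, so nothing was compared between groups and no test was run. A whole embryo of this age range mixes neural and non-neural cells, and sites used by few cells cannot be told apart from sites that were weakly bound in many. The control reads against which the regions were called were not analysed here.

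Activators of this family pair with the ubiquitous partner Daughterless through their helix-loop-helix domain and bind E-boxes, sites of the form CANNTG, through their basic region. The cell of a proneural cluster that keeps the highest proneural activity becomes a neural precursor and signals through Notch to its neighbours. In the neighbours Notch switches on the genes of the Enhancer of split complex, which include E(spl)m7-HLH. Their products are repressors of the bHLH-orange class that recruit Groucho, keep the neighbours from the neural fate, and act on proneural genes and on proneural proteins.

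A region is an interval the authors' caller reported, and its summit is the point of highest signal. The signal of a region is the caller's own value on a scale that is not stated, so it served only to rank regions within a list, with rank 1 for the strongest. The pooled list of all 3 libraries and the list of each replicate held 30000 regions each, background regions included. The optimal set held the 2397 regions that passed the authors' reproducibility test, and these were exactly the 2397 strongest of the pooled list. A gene was counted when a summit lay in it or within 5 kb to either side. All coordinates are on dm6, and positions within genes are given in bp from the annotated start, with negative values upstream. E(spl)m7-HLH itself had 4 optimal peaks in its window, where 31.2% of all protein-coding genes had any. The one nearest its start lay at -281 bp with signal 170 and rank 860. The strongest, of ranks 38 and 524, lay at -131 and -38 bp from the start of the neighbouring gene gro. Peaks at this locus do not verify which protein was tagged. Read numbers are not given in the lists, so the depth of each library is unknown.

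None of the 10 activator genes had an optimal peak in its window, where 31.2% of all protein-coding genes had one. A peak counts for every gene whose window holds it, and the 4350 genes with a peak shared 2270 peaks. By length, the 10 windows held 0 optimal peaks in 126 kb, where the windows of all genes held 2.04 per 100 kb. At that density windows of this length hold few peaks. ac, sc, l(1)sc and ase also lie close together on the X, so the 10 genes are not independent. Weak regions were common, and 8 of the 10 had at least one pooled region, beside 93.5% of all genes. The genes without a pooled region were ac and sc. By replicate, 9 of the 10 genes had a region in replicate 1, 9 in replicate 2 and 7 in replicate 3, beside 94.4%, 93.8% and 94.4% of all genes. A region of every replicate lay in the windows of 6 genes, namely ase, ato, cato, da, tap and dimm, beside 88.6% of all genes. When each replicate was cut to its 2397 strongest regions, none of the 10 genes was reached in replicate 1 or 2 and only da was reached in replicate 3, beside 31.6%, 30.3% and 31.6% of all genes.

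**Figure D1:**
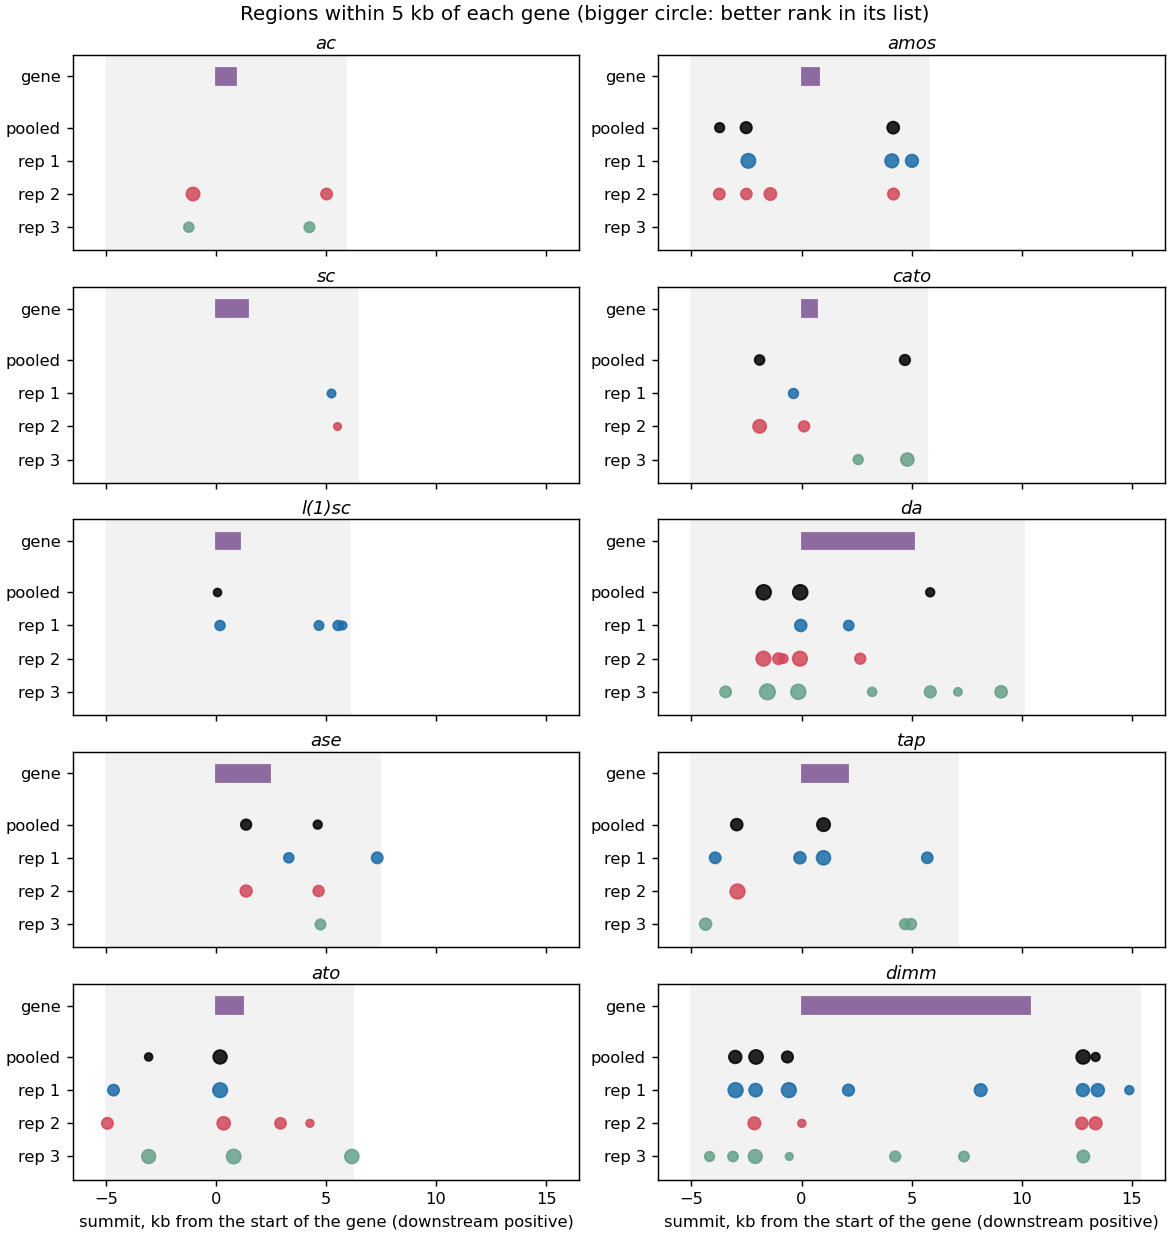
Summits of the pooled list and of the 3 replicate lists in the window of each activator gene, in kb from the start of the gene, with the gene as a purple box and the window shaded. Circles grow with better rank, and the pooled row is empty at ac and sc and fullest at dimm, with 5 regions.

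Of the 20 pooled regions at these genes, 3 had a summit of every replicate within 200 bp. One lay at the start of da and the others on either side of dimm. The sequences of the dimm regions are shown here because a summit of every replicate lay near each. Their −log10 q-values in the pooled list were 0.274 and 0.240, where the lowest of the optimal set was 1.83. They lay outside the optimal set, and by these values they cannot be told from background regions. Each stretch is taken from within 100 bp of the pooled summit, from the RefSeq genome sequence, plus strand, which is the strand of dimm, and shortened where transcribed leader sequence begins. Capitals mark E-boxes (CANNTG), N-boxes (CACNAG), the class C form CACGNG and the DNA replication-related element (DRE, TATCGATA).
dimm at -2066 bp, chr2L:21329590-21329790: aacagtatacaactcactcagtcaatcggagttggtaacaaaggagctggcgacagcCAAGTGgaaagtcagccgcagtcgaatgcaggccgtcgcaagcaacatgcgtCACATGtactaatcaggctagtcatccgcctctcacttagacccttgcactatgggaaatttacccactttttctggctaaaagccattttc
dimm at 12798 bp, chr2L:21344454-21344606: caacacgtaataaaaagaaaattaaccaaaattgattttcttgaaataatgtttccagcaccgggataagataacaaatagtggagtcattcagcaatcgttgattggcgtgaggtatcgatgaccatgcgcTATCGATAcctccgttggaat
The upstream stretch held a pair of E-boxes and neither N-box nor class C site. The downstream stretch held the DRE alone.

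Repression of ac by another bHLH-orange factor, Hairy, through a CACGCG core upstream of the gene is a textbook case, and the class shares preferences for such sites. The CACGCG core was therefore searched for on both strands of all 10 windows. It occurred 25 times, 1.98 times per 10 kb, the same rate as over the 6 chromosome arms analysed. The sites shown are the one nearest upstream of ac, and the ones closest to a pooled summit, closest to a replicate summit and near summits of more than one replicate. Each is 30 bases with the core in capitals, plus strand, from the RefSeq genome sequence.
ac at -303 bp, chrX:369716-369745: gttggcagccggCACGCGacagggccaggt
tap at 930 bp, chr3L:17360600-17360629: gctccagcatcgCACGCGgagcagccgccg
ac at 4216 bp, chrX:374235-374264: attgccactgcgCACGCGcacgcccaaagg
sc at 5347 bp, chrX:401395-401424: ctccgcataagtCACGCGtacaaagaagcc
The ac site at -303 bp lay 6788 bp from the nearest pooled summit and 6826, 746 and 936 bp from the nearest summits of replicates 1, 2 and 3. Another core upstream of ac, at -3153 bp in lncRNA:yar, lay 4574 bp from a pooled summit and 4562, 2104 and 1914 bp from those of the replicates. The tap site lay 72 bp from a pooled summit, and it was the only one of the 25 within 200 bp of one. The downstream ac site lay 26 bp from a summit of replicate 3 alone. The sc site lay 115 and 142 bp from summits of replicates 1 and 2, and no other core was within 200 bp of the summits of more than one replicate. Within 200 bp of a summit of at least one replicate there were 9 of the 25 cores. The matching shares over all CACGCG sites of the arms were not computed, for pooled or replicate summits. These counts therefore cannot be read as more or fewer than elsewhere.

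The achaete-scute genes come first in the neural programme. ac (achaete, FBgn0000022, chrX:370031-370947, plus strand) makes clusters of epidermal cells competent to form external sense organs and also acts in the embryonic neuroectoderm. It had no pooled region and no region of replicate 1. Replicate 2 had summits at -1049 bp (signal 20.4, rank 11185) and at 5023 bp (signal 16.7, rank 18923). Replicate 3 had summits at -1239 bp (signal 9.84, rank 23110) and at 4242 bp (signal 10.1, rank 21584). The upstream summits of replicates 2 and 3 were 190 bp apart, close to the matching limit of 200 bp, and no region there is among the 30000 pooled regions. Their −log10 q-values were 0.267 and 0.0600, where the highest of these lists were 3.37 and 3.15. They cannot be told from background regions.

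sc (scute, FBgn0004170, chrX:396060-397497, plus strand) is the partner of ac in sense organ formation and has a separate role in counting X chromosomes. It too had no pooled region, and replicate 3 had none. Replicate 1 had a region at 5232 bp with signal 13.6 and rank 27482, and replicate 2 had one at 5489 bp with signal 13.6 and rank 29752. Both stood near the end of their lists, and their summits were more than 200 bp apart.

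l(1)sc (lethal of scute, FBgn0002561, chrX:409721-410817, plus strand) promotes the formation of neuroblasts, the stem cells of the embryonic central nervous system. Its pooled region, at 57 bp in the 5′ untranslated region, had signal 30.6 and rank 28494. Replicate 1 had 4 regions in the window, the best of rank 23208 at 179 bp in the coding exon. Replicates 2 and 3 had none.

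ase (asense, FBgn0000137, chrX:460747-463176, plus strand) differs from the other genes of the complex in that it is expressed in neural precursors once these have been singled out. Pooled regions lay at 1366 bp in its coding exon, with signal 35.1 and rank 20858, and at 4619 bp, with signal 31.5 and rank 26574. The coding region was seen in replicate 2 alone, at rank 17267. The downstream one, in an intron of CG32816, was seen in replicates 2 and 3 at ranks 20356 and 21699. The best region of replicate 1, of rank 18713, lay at 7322 bp in the coding exon of Cyp4g1, a neighbour that encodes a cytochrome P450. No summit near ase was therefore shared by all 3 libraries, although each library had a region in its window.

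The achaete-scute complex holds these 4 genes together with enhancers that lie between them and drive each proneural cluster. From 5 kb before ac to 5 kb past ase, chrX:365031-468176, there was no optimal peak in 103 kb, where the X carried 1.94 per 100 kb. Pooled regions numbered 10, or 9.69 per 100 kb, beside 17.6 per 100 kb over the X. The replicates had 14, 9 and 12 regions, or 13.6, 8.73 and 11.6 per 100 kb, beside 17.4, 17.7 and 18.4 over the X. All 3 replicates and the pooled list were thus sparser across the complex than over the arm. The strongest pooled region, chrX:443886-444269, stood 74.0 kb from the start of ac between l(1)sc and ase, with signal 46.5 and rank 9857, and was found in 2 of the 3 replicates. The best ranks of the replicates across the complex were 7764, 4000 and 10804. The nearest optimal peak, chrX:362112-362495 of rank 1663, lay outside the complex at -95 bp from the start of the non-coding gene lncRNA:yar and 7727 bp from the start of ac.

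**Figure D2:**
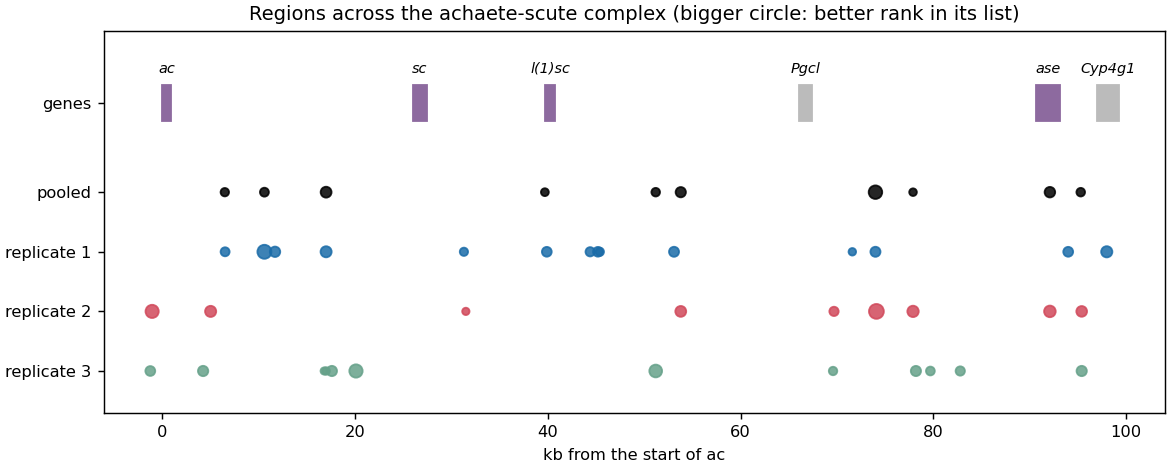
Regions across the achaete-scute complex in kb from the start of ac, with the pooled list and each replicate in a row and bigger circles for better ranks. CG32816, whose span covers the whole complex, is not drawn, and the largest pooled circle, at 74.0 kb, lies between l(1)sc and ase.

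The atonal group includes the proneural genes of another branch of the sensory system. ato (atonal, FBgn0010433, chr3R:8278052-8279274, plus strand) is the proneural gene of chordotonal organs, which sense stretch, and of photoreceptors. Its best pooled region lay in its single coding exon at 182 bp, with signal 47.3 and rank 9414. It was matched at rank 6247 in replicate 1 and rank 12187 in replicate 2, and not in replicate 3. Replicate 3 had its own summit in the coding exon, at 800 bp with rank 7055, so every library had a region within the body of ato but not at one position. A weaker pooled region at -3065 bp, of rank 28613, was matched in replicate 3 alone, where it had rank 9375.

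amos (absent MD neurons and olfactory sensilla, FBgn0003270, chr2L:18596136-18596921, minus strand) is the proneural gene of olfactory sensilla and of some embryonic multidendritic neurons. It had 3 pooled regions, 3 regions in replicate 1 and 4 in replicate 2, and none in replicate 3. The pooled region at -2515 bp, in intergenic sequence, had signal 37.2 and rank 18021 and was matched at rank 6856 in replicate 1 and 19697 in replicate 2. The best pooled rank, 15776, belonged to a region at 4167 bp in the coding exon of the neighbour CG15160, matched at ranks 10007 and 18274 in replicates 1 and 2. The remaining one, at -3720 bp with rank 24055, was matched in replicate 2 alone.

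cato (cousin of atonal, FBgn0024249, chr2R:16277685-16278396, minus strand) acts later than ato, in sensory precursors and their progeny. Pooled regions at 4700 bp, of rank 21069, and at -1904 bp, of rank 23012, both lay in coding exons of neighbours, CG33017 and prim. Each was matched in only 1 library, the downstream one in replicate 3 at rank 12225 and the other in replicate 2 at rank 11521. Within cato itself the only summit was one of replicate 2, at 116 bp with rank 20623.

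da (daughterless, FBgn0267821, chr2L:10388105-10393228, plus strand) encodes the shared partner of the activators and is expressed broadly. It had the strongest regions of the 10 genes in the pooled list. The region at its start, at -59 bp, had pooled signal 66.1 and rank 4150, and its summit recurred in every replicate, with signal 16.7 and rank 16598 in replicate 1, signal 25.6 and rank 5995 in replicate 2, and signal 18.9 and rank 4538 in replicate 3. Replicate 1 therefore gave it a much poorer rank than the others did. Its −log10 q-value in the pooled list was 0.729, where the lowest of the optimal set was 1.83.

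The other strong region near da, at -1720 bp, had pooled signal 65.6 and rank 4213 and stood at -123 bp from the start of Cdk1, which encodes the mitotic cyclin-dependent kinase. Replicate 2 had it at rank 5911 and replicate 1 lacked it. Replicate 3 had a summit 169 bp away with signal 34.9 and rank 1519, at -108 bp from the start of mRpS7, which encodes a protein of the mitochondrial ribosome. This was the only region among the 2397 strongest of any replicate in the windows of the 10 genes. It lay between the start sites of those neighbours rather than at the start of da. The nearest optimal peak, chr2L:10381952-10382335 of rank 702, stood 5961 bp from the start of da, at -119 bp from the start of CG5096.

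tap (target of Pox-n, FBgn0015550, chr3L:17359682-17361811, plus strand) is the fly neurogenin gene and acts in differentiating neurons. Its best pooled region, at 1002 bp in the coding exon, had signal 44.6 and rank 11044 and held the tap CACGCG site printed above. It was matched in replicate 1 alone, at rank 8609. The other, at -2943 bp in the coding exon of CG7692, had rank 16387 and was matched in replicate 2 alone, at rank 5325. The best region of replicate 3 had rank 16742 and was also in CG7692, at -4361 bp. Each library thus had its best tap region at another position.

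dimm (dimmed, FBgn0023091, chr2L:21331756-21342155, plus strand) directs the secretory programme of peptide-releasing neuroendocrine cells. It is the longest of the 10 genes, at 10400 bp, and had the most pooled regions, 5. The region at -2066 bp had signal 50.7 and rank 7795 and was found in replicates 1, 2 and 3 at ranks 11868, 14387 and 9853. The region at 12798 bp had signal 49.0 and rank 8495, ranks 13800, 16446 and 14985 in replicates 1, 2 and 3, and stood at -53 bp from the start of Tsp39D, a tetraspanin gene downstream of dimm. Both were seen in all 3 libraries with ranks that differed little, in contrast to the region at the start of da. Their −log10 q-values in the pooled list were 0.274 and 0.240, where the lowest of the optimal set was 1.83. A region at -3011 bp had pooled rank 13288 and was matched at rank 5365 in replicate 1 and 22527 in replicate 3. The region at -640 bp, of rank 18218, had rank 5737 in replicate 1 and 29449 in replicate 3. The last, in an intron of Tsp39D at 13365 bp, had rank 26718 and was matched in replicates 1 and 2.

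**Figure D3:**
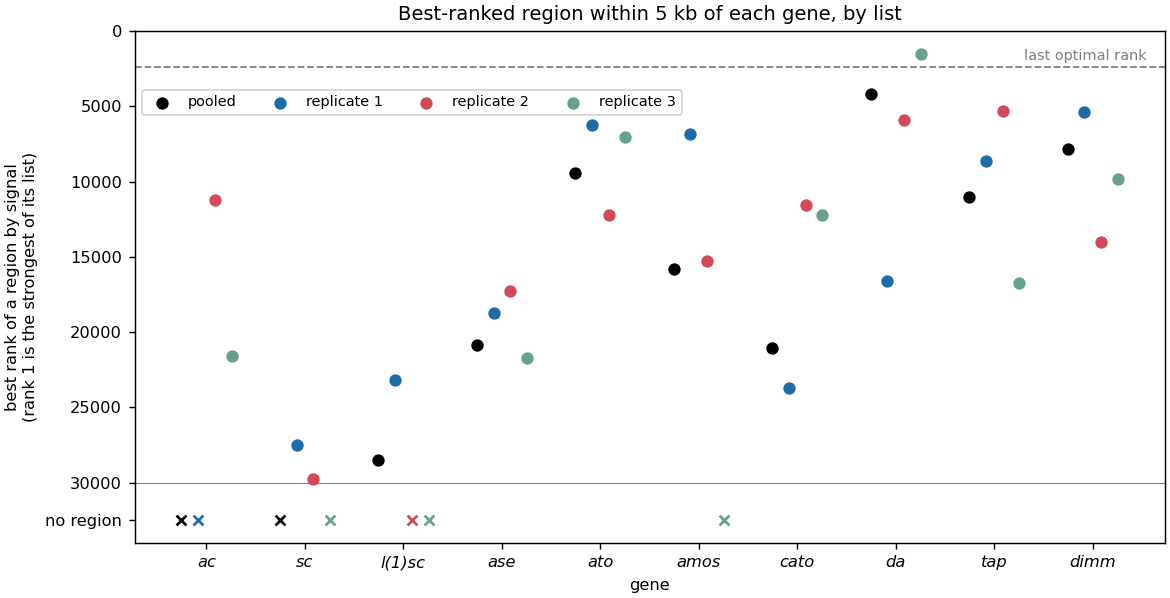
Best rank of a region in the window of each activator gene, in the pooled list and in each replicate, with rank 1 at the top and crosses where a list had no region. Only da in replicate 3, at rank 1519, stands above the dashed line at rank 2397, the last rank of the optimal set.

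In order of their best pooled rank the genes were da, dimm, ato, tap, amos, ase, cato and l(1)sc. The share of all genes with a better pooled rank was 44.1% for da, 61.5% for dimm, 67.3% for ato, 72.3% for tap, 82.0% for amos, 88.1% for ase, 88.3% for cato and 92.8% for l(1)sc. The leading gene differed between the libraries. da was best of the 10 in replicate 3 only, dimm led in replicate 1 at rank 5365 and tap led in replicate 2 at rank 5325. The best rank of da spread over 1519 to 16598 among the replicates, that of tap over 5325 to 16742, and that of ase over 17267 to 21699. In every replicate ase stood behind da, dimm, ato and tap, as it did in the pooled list. The median best pooled rank was 13410 over the 8 activator genes with a region, against 4543 over all genes with one. In replicates 1, 2 and 3 the medians were 16598, 12187 and 12225 for the activator genes, against 4485, 4624 and 4592.5 for all genes. The activator genes thus had the poorer median in every library.

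**Figure D4:**
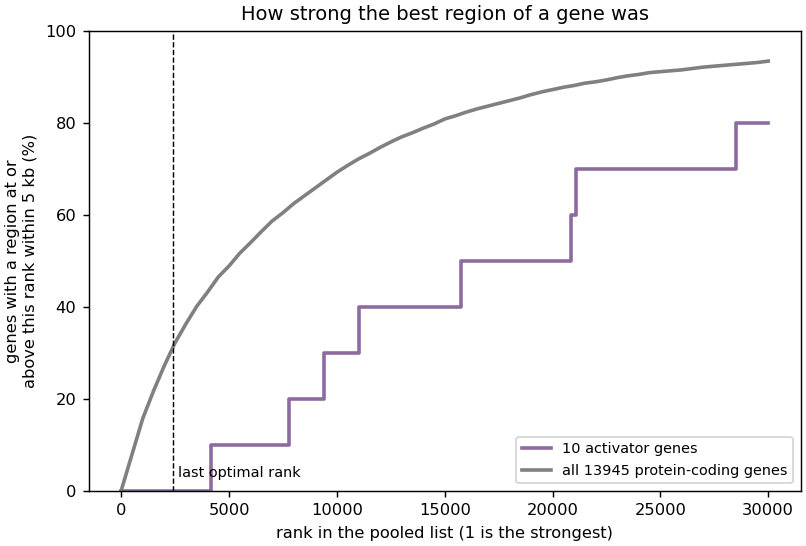
Share of genes, in percent, whose window holds a pooled region at or above a given rank, for the 10 activator genes (purple steps) and all 13945 protein-coding genes (grey). The activator genes stay at 0 up to rank 4150 and end at 80.0%, and all genes have reached 31.2% by the dashed line at rank 2397 and end at 93.5%.

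The density of regions per 100 kb of window was also set beside that of all genes. The windows of the 10 genes covered 126 kb and held 27, 25 and 25 regions in replicates 1, 2 and 3, a mean of 25.7 ± 1.15 (SD, n = 3). Per 100 kb this was 20.3 ± 0.924, against 24.6 ± 0.115 in the windows of all protein-coding genes (SD, n = 3 each). In the pooled list the densities were 15.8 against 24.6 per 100 kb. The X-linked genes and the others differed in this. At ac, sc, l(1)sc and ase the replicates had 15.3, 10.9 and 6.54 regions per 100 kb, against 19.3, 19.7 and 20.4 for all genes on the X, and in the pooled list they had 6.54 against 19.6. The 6 genes on other arms had 24.9, 24.9 and 27.4 per 100 kb in the replicates and 21.2 in the pooled list, where all genes had 24.5, 24.7 and 24.5 in the replicates and 24.6 in the pooled list. The values for all genes include the sparser X, and no density was computed for genes off the X, so the 6 genes lack a background of their own arms. In the pooled list both sets of activator genes were below all genes. Windows differ in length, since the median activator gene was 1330 bp long and the median of all genes was 2166 bp, before 5 kb was added to either side. The values per 100 kb are taken over window length. Whether length bears on the counts per gene was not tested.

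The pooled regions recurred between libraries about as often as other regions of their strength. Of the 20, 3 were matched in all 3 replicates, or 15.0%, 8 in a pair of replicates and 9 in only 1. Among pooled regions at all protein-coding genes 24.1% were matched in all 3, among pooled regions outside the optimal set 17.2%, and among regions within the span of ranks that the 20 covered 13.7%. Optimal peaks were matched in all 3 in 97.4% of cases.

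Of the 20 pooled regions, 9 lay in coding exons, 8 in intergenic sequence, 2 in introns and 1 in a 5′ untranslated region. Coding exons held 45.0% of them, against 28.4% of all pooled regions and 1.04% of optimal peaks. Of those 9, 3 were in the activator gene itself, namely ase, ato and tap, and 6 were in neighbours. The nearest start site was that of the activator gene for 11 of the 20 and that of another gene for 9. Within 500 bp of any start site there were 6 of the 20, against 24.2% of all pooled regions. Of these, 3 were at the start of l(1)sc, ato or da, and 3 at the start of prim, Cdk1 or Tsp39D.

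Motifs were counted on both strands within 100 bp of each summit, where an N stands for any base and the forms overlap in part. An E-box (CANNTG) was present in 15 of the 20 pooled regions, or 75.0%, against 68.7% of all pooled regions. The forms CAGCTG or CAGGTG, preferred by proneural proteins with Daughterless, were in 5, or 25.0%, against 21.8%. N-boxes (CACNAG) were in 4, against 26.7% of all pooled regions, and class C sites (CACGNG) in 4, against 17.1%. CACGCG was in 1, the tap coding region, or 5.00%, against 5.31%. The core of Su(H), the DNA-binding factor of the Notch pathway, searched as GTGGGAA or GTGAGAA, was in 1, the region between Cdk1 and mRpS7 near da, or 5.00%, against 4.31%. The DRE was in 1, the Tsp39D region near dimm, or 5.00%, against 1.13%. GAGAG, bound by GAGA factor, was in 5, or 25.0%, against 24.9%. With 20 regions a single one is 5.00%. The counts depended on the window, and within 50 bp of the summit E-boxes were in 5 of the 20, or 25.0%, against 44.0% of all pooled regions, the other direction from the wider window. CAGCTG or CAGGTG was then in 0 of the 20, against 11.6%.

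The nearest optimal peak lay 29.6 kb from the gene start at the median activator gene, against 15.4 kb over all genes. The value over all genes includes the 31.2% with an optimal peak in the window, and none of the activator genes had one. The contrast thus partly restates that count. The distances ran from 5961 bp at da to 74092 bp at tap. For ac, sc and l(1)sc the nearest was the peak at lncRNA:yar. For amos it lay 8196 bp away at -95 bp from the start of CG10413 (rank 232), for ato 30809 bp away at tex (rank 1479), for cato 28437 bp away at CngA (rank 367), for ase 33288 bp away at CG17896 (rank 84), for tap 74092 bp away at CG32176 (rank 93) and for dimm 23180 bp away at Mondo (rank 2276). None of these peaks had an activator gene as the gene with the nearest start.

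Other bHLH genes and genes that proneural factors act on were set beside the activators. Of 30 other bHLH genes, 15 had an optimal peak, against 31.2% of all genes. The strongest was at sim, the midline regulator, with signal 415 and rank 124, followed by crp (signal 254, rank 393), sima, the fly hypoxia-inducible factor (signal 252, rank 399), and bigmax (signal 227, rank 492), whose peak stood at -118 bp from the start of Hmu. emc, which encodes a helix-loop-helix protein that sequesters proneural proteins, had no optimal peak but 10 pooled regions, the best of rank 2819. The median best pooled rank of the other bHLH genes was 2276, and their median length, 5294 bp, was longer than that of the activator genes.

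Of 30 proneural target genes, 9 had an optimal peak, a share near the 31.2% of all genes. All 30 had a pooled region and a region of every replicate, beside 93.5% and 88.6% of all genes. The strongest were chn (signal 371, rank 157), elav, a marker of neurons (signal 259, rank 374), numb, which antagonises Notch in dividing precursors (signal 170, rank 862), and neur, a ubiquitin ligase that acts on Delta (signal 166, rank 897). sens, a zinc-finger gene that reinforces proneural activity, had no optimal peak, and its best pooled rank was 6131. Their median best pooled rank was 4487.5 and their median length 7966 bp, so gene length differed between the lists along with the counts.

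**Figure D5:**
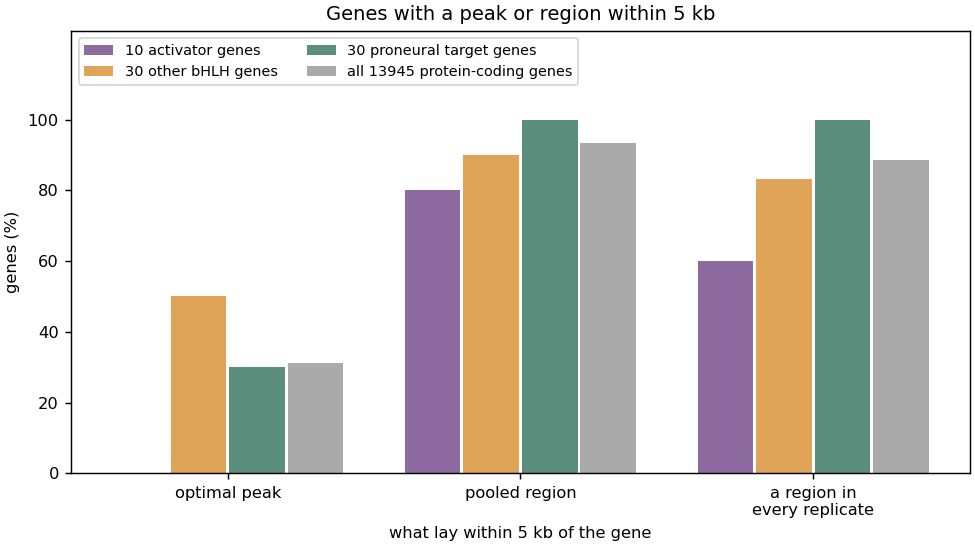
Share of genes, in percent, with an optimal peak, a pooled region or a region of every replicate within 5 kb, for the 10 activator genes, the 30 other bHLH genes, the 30 proneural target genes and all 13945 protein-coding genes. The activator genes are at 0 of 10, 8 of 10 and 6 of 10, against 31.2%, 93.5% and 88.6% for all genes.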

How the data were processed

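Regions were called by the authors on dm6 for each of the 3 replicates and for the replicates pooled, each against the same control alignment, and an irreproducible discovery rate (IDR) step on these lists gave the optimal set, per the deposited descriptions of the files. How reads were aligned and peaks called, and at which IDR cutoff, is not given in the sources used here. The deposited signal of a region is a score of the authors' caller with no stated scale. The deposited q-value is given as −log10. Chromatin was sonicated, per the labels, with a size range of 200 to 800 bp. Lists on dm3 were not used.

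Summits were placed on the gene models of Ensembl release 115 after a check that all 122397 regions ended within their chromosome arm, over the 6 major arms. Summits of different lists matched within 200 bp. Ranks within a list followed signal. Sequence came from the RefSeq genome of the same build, and 8 motifs were searched. The sequence of the region at the start of da is not reported here. Genes whose windows overlap were each counted, and a region was counted once in sums over a list. The named genes were all 10 activators, the genes with the nearest start to their best regions, up to 4 genes of each other list with the strongest optimal peak, emc, sens and the tagged gene. The genes and lists were chosen with earlier results of these data known. The scripts were tested on simulated regions. Scripts ran in Python 3.11.15 with pandas 2.3.3 and NumPy 2.4.6, and plots were drawn with Matplotlib 3.10.9.

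Alternatives were flanks of 2 kb and 10 kb, windows around start sites only, the upper part of each ranked list, other matching distances, ranking by q-value, other motif windows and leaving out each replicate. The last did not repeat the authors' calling, and for optimal peaks it kept only part of the set called from all replicates. Regions and genes are not independent replicates.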

Additional observations from a re-analysis of the deposited data

How the results depend on the processing

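Of the settings tried, 42 left the value within 1.5 times of that reported, or within 1 SD between replicates (2536 ranks) for the median rank, and 24 did not. With flanks of 10 kb, 3 of the 10 activator genes (ac, amos and da) had an optimal peak, beside 43.8% of all genes, and 1 optimal peak fell in the achaete-scute span. Every other setting tried for the activator genes narrowed the windows or the set of optimal peaks. Its count of 0 was thus fixed in advance and says nothing on stability. The pooled regions at the 10 genes numbered 9 with flanks of 2 kb, 36 with 10 kb and 7 in the upper part of the pooled list. In that upper part 4 of the 10 genes had one, beside 80.9% of all genes. Pooled regions found in all replicates numbered 1 with 2 kb, 7 with 10 kb and 0 in the top 10000 regions of each replicate. Under that cut 0 of the 10 genes had a region of every replicate, and the share over all genes was not computed. Leaving out a replicate, 5 to 7 of the 20 pooled regions were found in both others. With fewer replicates to match, this count could only stay or rise, so its direction was fixed in advance. The matching share over all pooled regions was not computed. The median best pooled rank was 18218 with 2 kb, 7906 with 10 kb and 8604.5 in the upper part. For these medians and for the region counts above, the matching values over all genes were not computed under each setting. They show how the values move with the setting and do not compare the activator genes with others. E-boxes were in 5 of 20 regions within 50 bp of the summit, 25.0% beside 44.0% of all pooled regions. The achaete-scute span held 3 pooled regions near start sites only and 1 in the upper part, and the density over the X was not computed for these settings. Other bHLH genes with an optimal peak numbered 15 with the whole optimal set, beside 31.2% of all genes. With its upper part they numbered 8, beside 18.1%. Without a replicate, peaks were not called anew. The optimal set was instead cut to 1647, 1591 and 1665 peaks without replicates 1, 2 and 3. In these smaller sets 9 to 11 other bHLH genes had a peak, beside 22.8% to 23.5% of all genes. Whether the count of 15 depends on a single library was therefore not tested. The count of genes with a top-ranked region, 1 over the replicates, was 0 in replicate 1 alone and 0 in replicate 2 alone, an alternative chosen after seeing the data. No paired analysis was possible because the 3 samples form 1 group. The causes of these shifts were not tested, apart from the larger or smaller windows themselves. With no read numbers, a region missing from a list cannot be told from one that fell below the 30000 listed.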
